A study of Homo sapiens with 20 samples.

Results

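The sites open with both fusion proteins alone were those where an accessible chromatin peak of TAZ-CAMTA1 overlapped a peak of YAP-TFE3 and no peak of the other 5 lists. They were found by merging all peaks that overlapped by 1 bp or more across the 7 peak lists of the series. There were 11730 such sites among 372133 merged sites, 3.15% of all sites and 7.91% of the 148383 sites that had a peak of both fusions. The sites were chosen by the presence or absence of a called peak in these same lists, so the counts and peak strengths describe the choice and are not a finding. Most were narrow and weak. In all, 64.2% lay within 10 kb of a site open in all 7 lists, against 61.8% of the sites that were neither members nor open in all lists. A peak of another list lay within 1 kb of 63.9%, against 64% of the sites held by 1 fusion alone. Both shares were near these pooled backgrounds. The 64% joins 68.7% at sites of TAZ-CAMTA1 alone and 58.6% at sites of YAP-TFE3 alone, and the members lay between them.

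TAZ-CAMTA1 and YAP-TFE3 are the fusion proteins of epithelioid hemangioendothelioma, a vascular sarcoma. Each keeps the N terminus of TAZ or YAP, which binds the TEAD transcription factors, and gains the C terminus of CAMTA1, a calmodulin-binding transcription activator, or of TFE3, a basic helix-loop-helix leucine zipper factor of the MiT family. TAZ and YAP are coactivators held back by the Hippo kinases, and they act mostly at enhancers through TEAD. ATAC-seq cuts open DNA with a transposase, so that a peak marks a stretch free enough of nucleosomes to be reached.

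All libraries came from SW872, an established human liposarcoma line, as pooled stable lines made with a retrovirus and selected with G418, the controls included. The vectors were the empty vector (EV), TAZ4SA and YAP5SA (TAZ and YAP with serines that the LATS kinases phosphorylate changed to alanine), full-length CAMTA1, full-length TFE3, TAZ-CAMTA1 and YAP-TFE3. The sample titles call the last Yap5SA-TFE3. Each vector had 3 libraries, except TFE3 with 2, and the third EV library is titled a redo. Each vector had 1 deposited peak list, in hg19, so no value has a replicate error, the read depth behind a list is unknown, and no test was run. Wilson 95% intervals cover counting error only and take sites as independent. The TAZ-CAMTA1 list held 236893 peaks and the YAP-TFE3 list 235795, against 152702 to 230886 in the other 5. Longer lists can hold more sites of their own. With every list held to its best 152702 peaks by −log10 p, 4070 sites had peaks of both fusions alone.

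The member sites had a median width of 149 bp (5% to 95% quantiles, 89 to 409 bp). Where a fusion had several peaks in a site the one with the largest area was used, which concerned 239 sites. The area under the curve of the peak caller's statistic, which grows with both height and width, had a median of 58.2 in TAZ-CAMTA1 and 58.7 in YAP-TFE3. The lowest areas among the members were 20.0007 and 20.0198. In the TAZ-CAMTA1 list 28.2% of all peaks had an area under the members' median, and in the YAP-TFE3 list 26.8%. The smaller of the 2 areas was under 40 at 6019 sites (51.3%). The median −log10 p of the summit was 3.95 in TAZ-CAMTA1 and 4.05 in YAP-TFE3, against 4.69 and 4.87 over all peaks of those lists.

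The summits of the TAZ-CAMTA1 and the YAP-TFE3 peak were a median of 19 bp apart, and at 9031 sites (77.0%) they were within 50 bp. The median overlap was 89 bp, which made up a median of 82.5% of the TAZ-CAMTA1 peak and 87.7% of the YAP-TFE3 peak. At 8500 sites (72.5%) the overlap reached 50% of both peaks. At the other end, 5% of sites had summits 166 bp apart or more.

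The nearest peaks of other lists to the members with the largest areas lay at very different distances. Members were ranked by the smaller of their 2 areas, and 10 were described singly. Area grows with width, so nothing is read from the breadth of these 10. The first, on chromosome 6 from 35075267 to 35075983, had both summits at the same base and an overlap of 705 bp. A CAMTA1 peak lay 1082 bp and a TFE3 peak 1160 bp away, whereas the nearest peaks of EV, YAP5SA and TAZ4SA lay 10631, 10666 and 10766 bp away. The fourth, on chromosome 8 from 58843649 to 58844053, was 62602 bp from the nearest site open in all lists, and the nearest YAP5SA peak was 55479 bp away.

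The sixth to the tenth of these sites ranged from even to uneven between the fusions. On chromosome 7 from 69123536 to 69124296 the area was 573 in TAZ-CAMTA1 and 1107 in YAP-TFE3, with a YAP5SA peak 768 bp away. On chromosome 20 from 37986912 to 37987382 the areas were 568 and 637, and no peak of another list lay closer than 18990 bp. On chromosome 11 from 95970925 to 95971512 the areas were 483 and 596, and a YAP5SA peak lay 331 bp away. On chromosome 5 from 168458596 to 168459006 the areas were alike, at 474 and 473, with summits 1 bp apart. On chromosome 3 from 42860911 to 42861810 the YAP-TFE3 area was the larger by far, 2205 against 471, and the nearest peak of another list was 14016 bp away. Of the 10, 2 therefore stood more than 10 kb from any peak of the lists they lack, and the others at most 4967 bp from one.

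A stronger subset was taken as members with a summit −log10 p of 5 or more in both fusion peaks. It held 235 sites, 2.00% of the members (1.77 to 2.27%). Of all sites with both fusion peaks, 55.1% passed the same threshold, and since the rule used these peaks nothing is read from the lower share among the members. The subset depended on single lists. It grew to 737 sites when a CAMTA1 peak was allowed and to 381 when a TFE3 peak was allowed, whereas the count of all members grew to 19726 and 13478. Allowing an EV, YAP5SA or TAZ4SA peak gave 313, 351 and 250 strong sites.

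**Figure D1:**
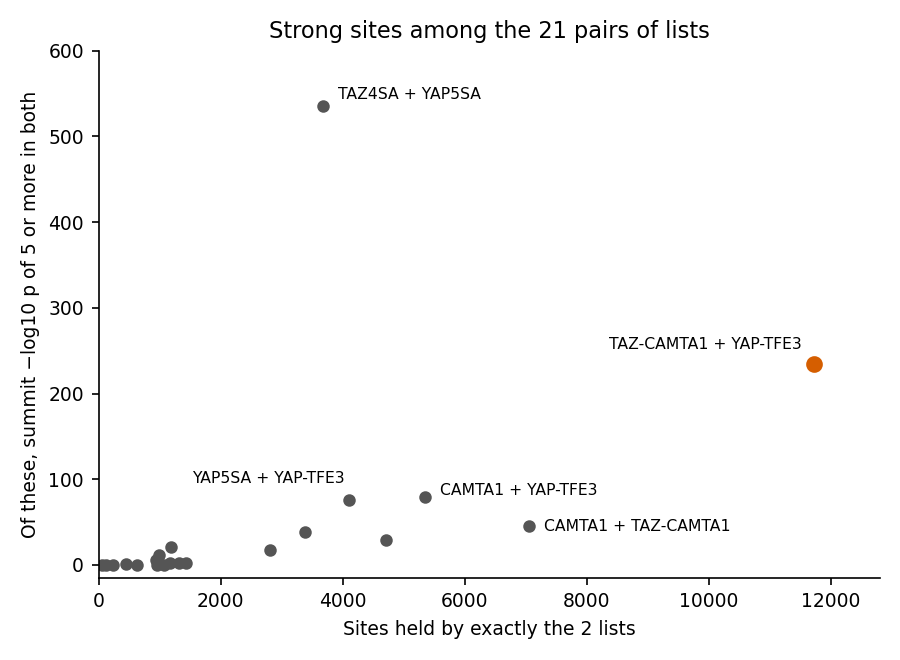
For each of the 21 pairs of lists, the number of merged sites held by exactly those 2 lists (x axis) and how many of them had a summit −log10 p of 5 or more in both (y axis). The fusions (orange) hold the most sites, 11730, with 235 strong ones, whereas TAZ4SA with YAP5SA holds 3675 sites with 536 strong ones.

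Among the 21 pairs of lists, the fusions held the most sites of their own but not the most strong ones. TAZ4SA with YAP5SA, the activated full-length coactivators, had 536 strong sites among 3675, a share of 14.6% (13.5 to 15.8%). The other pairs had 79 strong sites or fewer, with 79 for CAMTA1 with YAP-TFE3, 76 for YAP5SA with YAP-TFE3 and 45 for CAMTA1 with TAZ-CAMTA1. With lists held to equal length, which was added after seeing the data, the fusions had 570 strong sites among 4070 and TAZ4SA with YAP5SA 909 among 3919. In the full lists, TAZ4SA with TAZ-CAMTA1 and TFE3 with YAP-TFE3 had 0 each, of 959 and 620 sites. EV with CAMTA1 also had 0, as did TFE3 with EV, with TAZ4SA and with YAP5SA. At equal length, TAZ4SA with TAZ-CAMTA1 had 7 of 712 and TFE3 with YAP-TFE3 had 2 of 1123.

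The subset members were a median of 239 bp wide against 147 bp for the other members, with median areas of 220 in TAZ-CAMTA1 and 220 in YAP-TFE3. Just inside were a site on chromosome 17 from 61849594 to 61849925, with −log10 p of 5.0009 and 5.21 in TAZ-CAMTA1 and YAP-TFE3, a site on chromosome 5 from 80257804 to 80258097, with 5.0032 and 10.1, and a site on chromosome 7 from 3048966 to 3049273, with 5.12 and 5.0049. Just outside were sites on chromosome 10 from 89424133 to 89424447, chromosome 7 from 55355278 to 55355615 and chromosome 16 from 23914894 to 23915280. Their TAZ-CAMTA1 values were 5.74, 5.18 and 5.13, and their YAP-TFE3 values 4.998, 4.997 and 4.996. The highest smaller-of-2 value, 6.89, was on chromosome 22 from 33313548 to 33314199. Besides sites named above, the top 5 by this value included a 221-bp site on chromosome 15 from 52171826 to 52172046, with 6.84 and 6.71, and a 409-bp site on chromosome 10 from 45966110 to 45966518, with 6.76 and 6.64.

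A stricter merge described the same sites from the side of the other lists. When only peaks with a summit −log10 p of 5 or more were kept in every list, 5667 sites had peaks of both fusions alone. Of these, 5432 (95.9%, 95.3 to 96.3%) overlapped a weaker peak of another list that the stricter merge had dropped. A CAMTA1 peak was there at 82.2% of them, a TFE3 peak at 68.1%, a YAP5SA peak at 53.3%, an EV peak at 50.9% and a TAZ4SA peak at 17.0%. The median −log10 p of those weaker peaks ran from 4.19 for TFE3 to 4.38 for CAMTA1. The remaining 235 sites were the stronger subset. These values are the ones the rule and the threshold used, and the weaker peaks are under 5 by construction, so they are a description of the choice.

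The sites just outside the rule, with both fusions and exactly 1 other list, numbered 7996 for CAMTA1, 3623 for YAP5SA, 1882 for EV, 1748 for TFE3 and 627 for TAZ4SA. The lowest area of the peak that put them outside ran from 20.0026 for YAP5SA to 20.0652 for TAZ4SA, at the floor of the lists. Its median area was 63.9 for CAMTA1, 56.6 for YAP5SA, 42.4 for EV, 39.0 for TFE3 and 38.9 for TAZ4SA.

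Peaks of the other lists were also close to the members that none of them overlapped. The nearest such peak was a median of 440 bp away, and at 3664 members (31.2%) it was within 200 bp. A CAMTA1 peak lay within 1 kb of 53.1% of the members, a YAP5SA peak of 47.7%, a TFE3 peak of 42.0%, an EV peak of 41.7% and a TAZ4SA peak of 28.9%. CAMTA1 was the nearest list at 5035 members (42.9%) and YAP5SA at 3202 (27.3%), where sites at equal distance from several lists count for each. The CAMTA1 list held fewer peaks than the YAP5SA list, 223651 against 230886, but covered more bases, 98274341 against 86923118. The part of list size in this order was not tested. CAMTA1 was also ahead of YAP5SA at the sites of each fusion alone. At sites of TAZ-CAMTA1 alone 55.9% had a CAMTA1 peak and 49.95% a YAP5SA peak within 1 kb, and at sites of YAP-TFE3 alone 46.1% and 42.2%. For TFE3, EV and TAZ4SA the shares within 1 kb were 43.6, 45.7 and 30.8% at sites of TAZ-CAMTA1 alone. At sites of YAP-TFE3 alone they were 34.1, 33.6 and 27.4%, so that the members lay between for each list. The median of 440 bp, the share within 200 bp and the nearest list were not computed for those sites. Members with no peak of the other lists within 1 kb numbered 4237, and 114 of them were in the stronger subset.

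**Figure D2:**
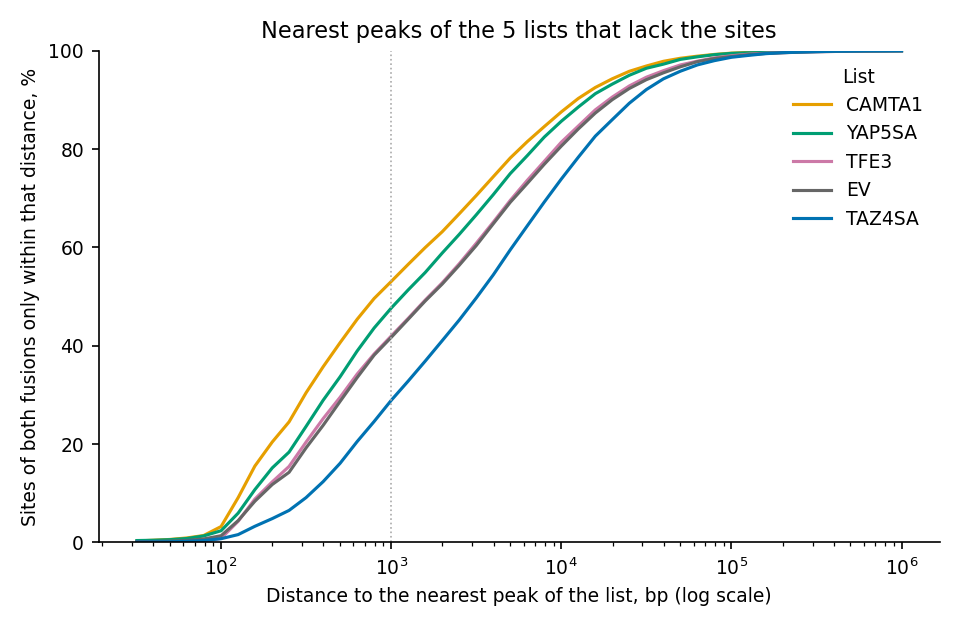
Share of the 11730 sites of both fusions only (y axis, %) that lie within a given distance (x axis, bp, log scale) of a peak of each list that lacks them. At 1 kb (dotted line) the curves run from 28.9% for TAZ4SA to 53.1% for CAMTA1, with EV and TFE3 nearly on top of each other.

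The next comparison placed the members relative to the 60372 sites open in all 7 lists. The median distance was 4992 bp (25% and 75% quantiles, 873 and 16996 bp). Of the members, 12.2% lay within 200 bp, 26.5% within 1 kb, 34.5% within 2 kb and 64.2% (63.3 to 65.1%) within 10 kb. Among the 300031 sites that were neither members nor open in all lists, the median distance was 5821 bp. Of those sites, 10.2% lay within 200 bp, 22.9% within 1 kb, 31.1% within 2 kb and 61.8% within 10 kb. The shares of the members were somewhat higher at each of these distances, and at 10 kb near that background.

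At 10 kb the members lay between the sites held by each fusion alone. Within 10 kb of a site open in all lists were 68.7% (68.2 to 69.1%) of the 34791 sites of TAZ-CAMTA1 alone and 56.2% (55.7 to 56.8%) of the 30025 sites of YAP-TFE3 alone. Within 200 bp the order was another, with 12.2% (11.6 to 12.8%) of the members, 11.3% (11.0 to 11.7%) of TAZ-CAMTA1 alone and 8.40% of YAP-TFE3 alone. The share within 200 bp was higher than that of the members for CAMTA1 with TAZ-CAMTA1, at 14.5% (13.7 to 15.3%). For CAMTA1 with YAP-TFE3 it was 11.9%. At 10 kb, the share of the members was above that of YAP-TFE3 alone on 21 of 22 autosomes and above that of TAZ-CAMTA1 alone on 1. CAMTA1 with TAZ-CAMTA1 had 69.9% and CAMTA1 with YAP-TFE3 60.1%. The sites of TAZ4SA with YAP5SA were the farthest, at 47.5% (45.9 to 49.2%), with a median of 11234 bp, and the share of the members was higher on 22 of 22 autosomes. Autosomes are not replicates, and these are descriptions.

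**Figure D3:**
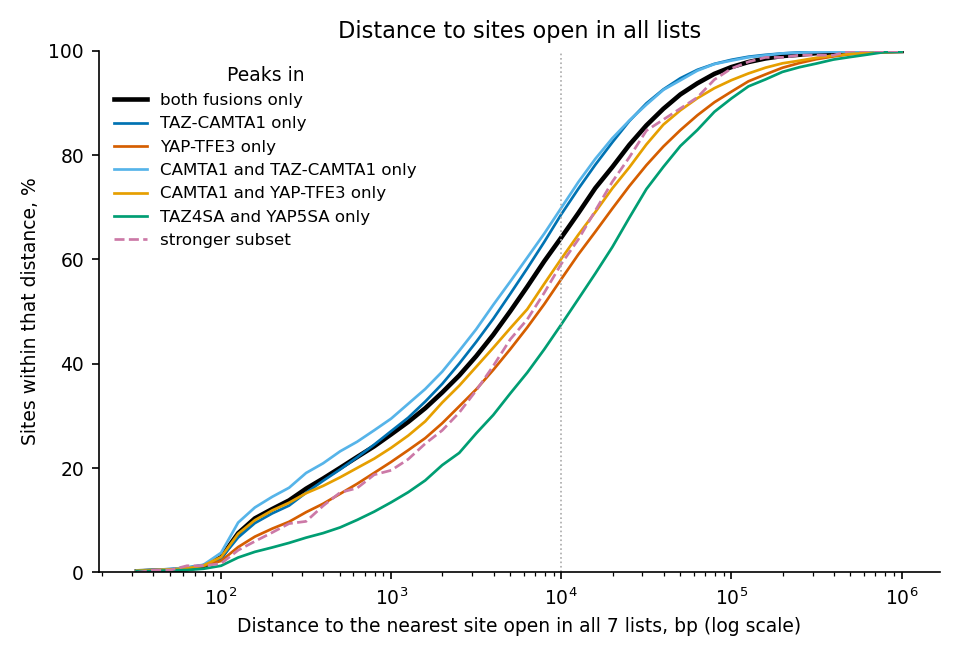
Share of sites (y axis, %) within a given distance (x axis, bp, log scale) of the nearest site open in all 7 lists, for sites held by the lists named. At 10 kb (dotted line) the sites of both fusions only (thick black) reach 64.2%, between TAZ-CAMTA1 only at 68.7% and YAP-TFE3 only at 56.2%, with TAZ4SA and YAP5SA only lowest at 47.5%.

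The stronger subset lay somewhat farther out, at a median of 7138 bp, with 59.1% (52.8 to 65.2%) within 10 kb. This interval includes the share of 64.3% in the other members. Within 200 bp the shares were 7.66% (4.90 to 11.8%) and 12.2%. By the smaller −log10 p, the share within 10 kb was 63.8% under 3.5, 65.6% from 3.5 to 4, 62.3% from 4 to 4.5, 59.6% from 4.5 to 5, 58.7% from 5 to 5.5 and 60.8% above, the last over 51 sites. The strong sites farthest from any site open in all lists were on chromosome 19 from 28704464 to 28704582, at 418657 bp, and on chromosome 4 from 96087195 to 96087388, at 407126 bp. The first had an EV peak 127 bp away, whereas the nearest peak of another list to the second was a CAMTA1 peak 40912 bp away. The next were on chromosome 7 from 77855486 to 77855661, at 205209 bp, and on chromosome 10 from 7311443 to 7311620 and from 61935022 to 61935752, at 138858 and 138212 bp.

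The 2988 sites open in all lists that neighboured a member within 1 kb had a median width of 1414 bp, against 1226 bp for all 60372, and a median TAZ-CAMTA1 area of 2989 against 2030. Those within 1 kb of sites of TAZ-CAMTA1 alone and of YAP-TFE3 alone had medians of 1337 and 1270 bp, so that widths above the overall median were found there too. Their median TAZ-CAMTA1 areas, 2541 and 2143, were also above the overall median. The 3484 that were nearest to members over 10 kb away had a median width of 1166 bp.

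Few members were far from other open sites. With members themselves left aside, 619 (5.28%) had no merged site within 10 kb and 61 (0.520%) none within 50 kb. The median distance to the nearest such site was 234 bp. These values were not computed for other classes of sites, so they are not read as a trait of the members.

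Members were also unevenly spread among themselves. The median distance to the next member was 35598 bp, and 3080 members (26.3%, 25.5 to 27.1%) had another within 10 kb. For their own class, sites of TAZ-CAMTA1 alone had 54.6%, YAP-TFE3 alone 47.7% and TAZ4SA with YAP5SA 22.6%. CAMTA1 with TAZ-CAMTA1 had 18.9% and CAMTA1 with YAP-TFE3 14.7%. This share depends on how many sites a class holds. The gap between neighbouring members had a median of 83349 bp and a mean of 251057 bp, a ratio of 0.332. Sites of TAZ-CAMTA1 alone had a ratio of 0.242, those of YAP-TFE3 alone 0.325 and those of CAMTA1 with YAP-TFE3 0.425, so that the gaps of the members were no more uneven than those of the sites of either fusion. Chaining members up to 10 kb apart gave 1379 groups, of which 1137 had 2 members, 176 had 3 and 66 had 4 or more, up to 7. None of the 235 stronger sites lay within 10 kb of another stronger site, and 10 lay within 50 kb of one.

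The tightest groups were chosen by their number of members within 100 kb. The counts of sites given for them include the members. They were not made for other windows, so nothing is read from these counts. The tightest group held 12 members within 95373 bp on chromosome 11, from 65269042 to 65364414, among 52 sites of which 10 were open in all lists. The members' areas there ran from 20.1 to 195 in TAZ-CAMTA1 and from 21.2 to 329 in YAP-TFE3, and 1 was in the stronger subset. The others held 10 members each. They lay on chromosome 12 from 113515216 to 113596519, on chromosome 1 from 1497957 to 1580508, and on chromosome 19 from 773174 to 855822 and from 4506963 to 4600959, each among 52 to 62 sites.

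Over bins of 1 Mb the number of members followed that of other sites, with a Spearman rho of 0.790 over 2826 bins. These points share libraries and chromosomes. The 322 bins with 10 or more members held 37.1% of the members in 11.4% of the bins, and 616 bins held none. This concentration was not computed for other sites and is not read as a trait of the members. The bin with the most members was the first megabase of chromosome 19, with 29 members among 379 sites, followed by 2 bins with 24 members on the same chromosome, from 1000001 to 2000000 among 398 sites and from 5000001 to 6000000 among 220.

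Chromosome 19 also stood out as a whole. Of its 5038 sites with both fusion peaks, 570 had no other list, a share of 11.3% (10.5 to 12.2%), and its members were the densest, at 9.65 per Mb. Chromosome 22 followed at 10.2% (9.14 to 11.3%). The lowest autosomal shares were on chromosome 5, at 6.41% (5.99 to 6.87%), and chromosome 2, at 6.51% (6.06 to 6.99%). The median over autosomes was 7.97%. Chromosome 5 had the most merged sites, 39892, and the lowest autosomal share of members among all sites, 1.90%. On chromosome 19, 39.6% of members had another within 10 kb, the highest of the autosomes, against 18.2% on chromosome 18. The part of gene density, copy number or base composition was not tested.

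**Figure D4:**
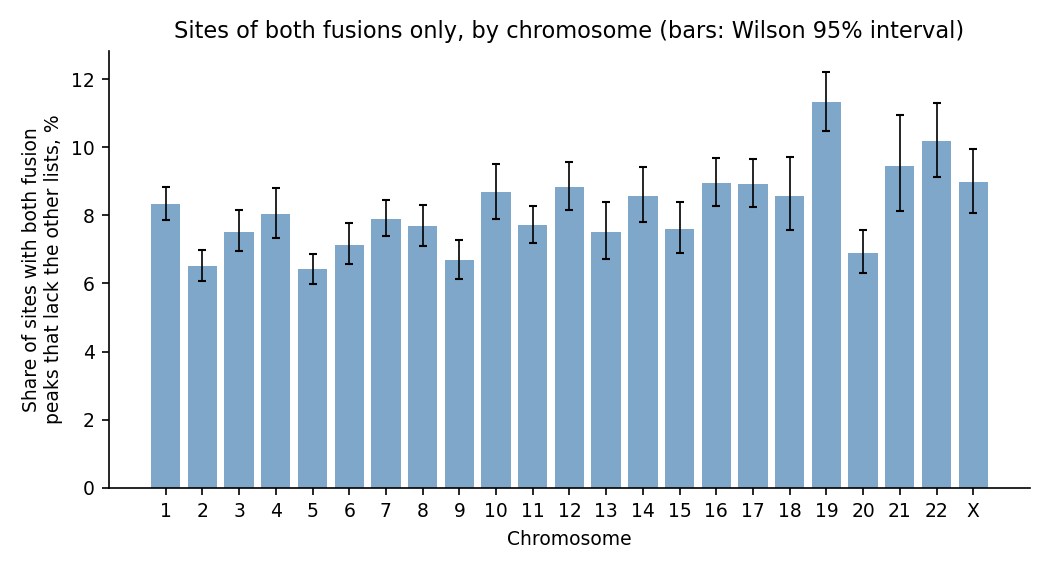
For each chromosome (x axis), the share (y axis, %) of sites with both fusion peaks that had no peak of the other 5 lists, with Wilson 95% intervals as error bars. The tallest bars are chromosome 19 at 11.3% and chromosome 22 at 10.2%, and the lowest is chromosome 5 at 6.41%. Chromosome Y, with 3 such sites, is not drawn.

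The final description asked whether a site stronger in one fusion was also stronger in the other. Across the 11730 members the areas of TAZ-CAMTA1 and YAP-TFE3 were weakly related, with a Spearman rho of 0.186 (0.103 to 0.295 on single autosomes) and a Pearson r of 0.221 on log10 areas. Over the 60372 sites open in all lists the rho was 0.933. The members cover a narrow range of areas. Among the 35497 sites with both fusions and another list whose areas did not exceed the 95% quantiles of the members, the rho was 0.187. Those sites had median areas of 86.1 and 83.5. With the members split into 4 equal parts by TAZ-CAMTA1 area, the median YAP-TFE3 area was 51.9, 53.8, 57.1 and 79.2 from the lowest part to the highest. Peak widths were more closely related than areas, with a rho of 0.309, near the 0.292 over those 35497 sites. In the stronger subset the rho of the areas was 0.425 and that of the widths 0.588, whereas that of the summit −log10 p was 0.0801, against 0.170 over all members. The subset was cut on these −log10 p values, so nothing is read from its rho values against those of all members.

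**Figure D5:**
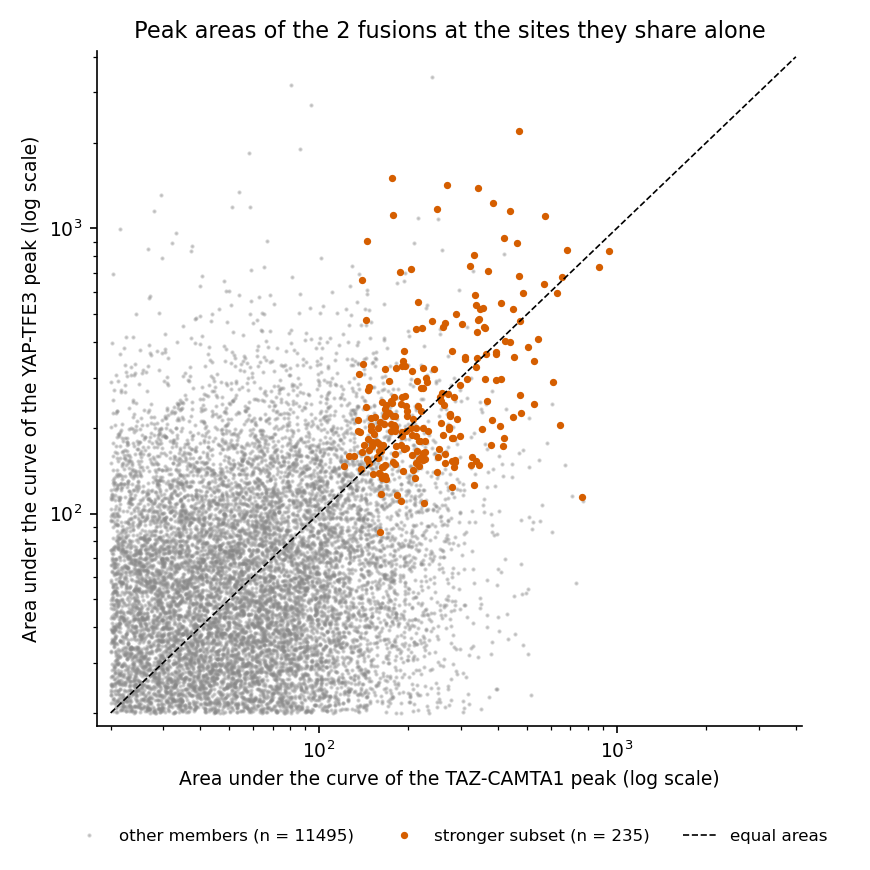
Area under the curve of the TAZ-CAMTA1 peak (x axis) and the YAP-TFE3 peak (y axis), both on log scales, at each of the 11730 sites; orange points are the 235 sites with a summit −log10 p of 5 or more in both, and the dashed line marks equal areas. The cloud is centred on the line with a rho of 0.186, and only YAP-TFE3 areas exceed 1000.

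The balance between the fusions was close to even. The YAP-TFE3 area was larger at 50.5% of members (49.6 to 51.4%), against 52% of all sites with both fusion peaks, and the median log2 ratio of YAP-TFE3 to TAZ-CAMTA1 area was 0.02. The 5% and 95% quantiles were -2.04 and 2.21, against -2.04 and 1.99 over all sites with both fusion peaks. The counts in the tails were less even. The YAP-TFE3 area reached 500 at 105 members and 1000 at 21, and the TAZ-CAMTA1 area reached 500 at 32 members and 1000 at 0. YAP-TFE3 was at least 4 times larger at 768 members (6.55%, 6.11 to 7.01%) and TAZ-CAMTA1 at 628 (5.35%, 4.96 to 5.78%). A summit −log10 p of 5 or more was reached in YAP-TFE3 alone at 1054 members and in TAZ-CAMTA1 alone at 668. Over all peaks of the lists the median −log10 p was 4.87 in YAP-TFE3 and 4.69 in TAZ-CAMTA1. These tail counts were not made over all sites with both fusion peaks, so they are not read as a trait of the members.

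The sites at the ends of this range were picked after their values were seen. The largest YAP-TFE3 area was 3409, on chromosome 18 from 74974277 to 74975830, where the TAZ-CAMTA1 area was 241, and the next was 3195, on chromosome 2 from 205271580 to 205272777, where it was 80.4. The most uneven site, on chromosome 17 from 53665958 to 53666550, had an area of 997 in YAP-TFE3 and 21.4 in TAZ-CAMTA1, with a CAMTA1 peak 801 bp away. A site on chromosome 6 from 164529857 to 164530769 had 1311 and 29.5, and the nearest site open in all lists was 293319 bp away. In the opposite direction, a site on chromosome 6 from 36107285 to 36107755 had an area of 516 in TAZ-CAMTA1 and 23.1 in YAP-TFE3.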

How the data were processed

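ATAC-seq was made from SW872 cells carrying 1 of 7 vectors, in 20 libraries. According to the study's methods, the authors trimmed reads with NGmerge, aligned them to hg19 with BWA-MEM and called peaks with Genrich in ATAC-seq mode, removing PCR duplicates and blacklisted regions. Calling is described per replicate, whereas 1 list per vector was deposited, and how libraries were combined is not given in the sources used here. The labels' processing notes name another aligner and a mouse build, which differ from these human lists. Per peak, the authors deposited the signal (the area that the caller's statistic encloses over the peak), the summit −log10 p and −log10 q, a score and a summit offset. The score and the −log10 q were not used.

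Peaks overlapping by 1 bp or more were merged in Python 3.11.15. The 372133 sites were the same as those of bedtools 2.31.1, and distances were tested on simulated data. Distances are bases between edges. Positions count from 1. The members, the comparison sets and the descriptions were chosen with earlier results of these data known. Named sites were the 10 members with the largest smaller area, the 5 with the largest smaller −log10 p, the 5 tightest groups within 100 kb, the 5 strong members farthest from sites open in all lists, and 3 on each side of a −log10 p of 5. The genome and annotation at hand are of another build, so genes, sequences and motifs were not analysed here. Alternatives are given in the closing section.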

Additional observations from a re-analysis of the deposited data

How the results depend on the processing

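Of 63 values recomputed under alternatives, 25 stayed within limits and 38 moved, by more than 1.5 times for a count, beyond the Wilson interval for a share, or by more than the SD of 0.0469 over autosomes for rho. None reversed. The cause was not tested beyond what an alternative's construction shows. Allowing a CAMTA1, YAP5SA or TAZ4SA peak and the stricter threshold of 5 were added after seeing the data.

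The count of 11730 sites became 7262 when every list was cut to peaks with −log10 p of 4 or higher, 5667 at 5, 4070 when each list kept its best 152702 peaks, 6841 when peaks were replaced by summits extended by 250 bp both ways, 4237 with no peak of another list within 1 kb and 19726 with a CAMTA1 peak allowed. In the first 5 of these settings in that order, the share within 10 kb of a site open in all lists was 61.0, 48.6, 60.6, 57.3 and 43.9%. It was 65.1% with a YAP5SA peak allowed, and 34.5 and 91.6% at 2 and 50 kb. The number of sites open in all lists, and the share of other sites within 10 kb of one, were not computed in these settings. The moved shares therefore have no background beside them. A site open in all lists also holds peaks of the other lists. Requiring no such peak within 1 kb therefore tends to drop the members closest to one, by construction.

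The share with another member within 10 kb was 17.2, 13.5, 11.1, 13.2 and 14.7% in the same 5 settings. With a TFE3, EV, TAZ4SA, CAMTA1 or YAP5SA peak allowed it was 28.6, 29.4, 27.1, 36.0 and 31.1%, and at 2 and 50 kb it was 11.9 and 58.3%. This share depends on how many members there are.

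The stronger subset of 235 became 733 with lists cut at 4, 570 with lists of equal length, 114 with no peak of another list within 1 kb, 381 and 737 with a TFE3 or CAMTA1 peak allowed, and 3240 and 16 at thresholds of 4 and 6. The rho of the areas was 0.254 and 0.432 with lists cut at 4 and 5, 0.249 with lists of equal length, 0.239 with a CAMTA1 peak allowed and 0.309 for peak width. On autosomes only, the 5 results stayed within limits.

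No paired analysis was possible because each vector has a single list without separate values for its libraries, and leaving out a replicate was not run for that reason. The planned motif and gene results were not run, since the genome at hand is of another build. Every count that rests on the absence of a peak is limited by a read depth that is not known.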
